A study of Mus musculus with 40 samples.

Results

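The interferon regulatory factors (IRFs) are DNA-binding proteins that control interferon genes and many genes of innate immunity. The members described here are Irf1, Irf2, Irf3, Irf4, Irf5, Irf7, Irf8 and Irf9, chosen by symbol and found as 8 of the 57010 genes of the count table. They were measured in mouse bone marrow-derived macrophages, which are primary macrophages grown from marrow with L929-conditioned medium as the source of macrophage growth factor. KO cells carried a loxP-flanked Otulin gene on both alleles and the LysM-Cre transgene (OtulinFL/FL LysMCreTg/WT), which expresses Cre recombinase in myeloid cells. WT cells carried the same floxed alleles without Cre (OtulinFL/FL). The Otulin protein is a deubiquitinase specific for linear ubiquitin chains. Cells of both genotypes were sampled untreated (0 h) or 3, 6, 12 and 24 h into treatment with 500 ng/ml of ultrapure LPS from Salmonella minnesota, in 4 biological replicates per genotype and time, 40 libraries in all. Libraries below are named by genotype and replicate number, such as KO 1 or WT 1. No group had Cre without floxed Otulin, so loss of Otulin and presence of Cre cannot be told apart. The age of the mice was not among the labels used.

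LPS is a cell wall component of Gram-negative bacteria that is sensed by the receptor TLR4. In macrophages TLR4 acts through the adaptor TRIF and the kinases TBK1 and IKKε to activate IRF3, which switches on interferon beta, and through MyD88 to activate NF-κB and IRF5. Secreted interferon beta then acts back on the cell, where IRF9 is the DNA-binding subunit of the complex ISGF3 that drives interferon-inducible genes, Irf7 among them. IRF1 is an activator that interferon gamma and NF-κB induce, IRF2 can oppose it at shared sites, IRF8 with its partner PU.1 sets myeloid identity, and IRF4 is linked to alternative activation of macrophages. IRF3, IRF5 and IRF7 are switched on by phosphorylation, which RNA levels do not show.

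Promoter sequences show which of the genes carry letters for STAT, NF-κB or IRF sites just before their start. All 8 members were matched in RefSeq (GRCm38.p6), with 11 start sites between them, and each window ran from 250 bases before to 50 after a start, 300 bases in all. Searched on both strands were the STAT site GAS (TTCNNNGAA), the interferon-stimulated response element ISRE (GAAA, any 2 bases, GAAA) and the NF-κB consensus. Of 32851 promoter windows, 8.3% held GAS, 3.44% held ISRE and 4.51% held the NF-κB consensus. Of the 11 member windows, 3 held GAS, 1 held ISRE and 2 held the NF-κB consensus, and these were windows of Irf1, Irf2 and Irf8. The 250 bases before those 3 starts are shown because they hold every match found, with matches in capitals.
Irf1 promoter, chr11:53769764-53770013, + strand, GRCm38.p6: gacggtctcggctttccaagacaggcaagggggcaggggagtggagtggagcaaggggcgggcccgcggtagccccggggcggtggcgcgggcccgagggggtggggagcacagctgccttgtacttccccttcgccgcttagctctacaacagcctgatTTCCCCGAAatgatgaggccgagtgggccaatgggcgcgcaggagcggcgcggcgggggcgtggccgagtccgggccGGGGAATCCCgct
Irf2 promoter, chr8:46739495-46739744, + strand, GRCm38.p6: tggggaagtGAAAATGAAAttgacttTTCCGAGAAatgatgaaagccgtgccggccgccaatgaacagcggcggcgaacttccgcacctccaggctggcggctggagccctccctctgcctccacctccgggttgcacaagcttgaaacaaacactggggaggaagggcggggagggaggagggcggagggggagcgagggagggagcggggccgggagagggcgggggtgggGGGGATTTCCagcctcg
Irf8 promoter, chr8:120736108-120736357, + strand, GRCm38.p6: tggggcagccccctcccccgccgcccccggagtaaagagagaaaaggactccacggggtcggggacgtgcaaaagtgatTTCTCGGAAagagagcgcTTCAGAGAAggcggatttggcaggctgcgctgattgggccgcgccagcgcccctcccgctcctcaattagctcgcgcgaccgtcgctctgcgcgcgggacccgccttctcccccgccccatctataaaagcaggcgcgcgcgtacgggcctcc
Counted from the start site, the Irf1 sequence holds GAS at −90 to −82 and the NF-κB consensus at −13 to −4. The Irf2 sequence holds ISRE at −241 to −232, GAS at −224 to −216 and the NF-κB consensus at −17 to −8. The Irf8 sequence holds 2 GAS matches, at −171 to −163 and −153 to −145. No 2 matches overlap, and a match is a description of the letters, not a measured binding site. In the windows of Irf3, Irf4, Irf5, Irf7 and Irf9, and in the second windows of Irf1, Irf8 and Irf9, none of the 3 motifs was found.

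Each library held 3615155 to 6829303 counts (median 4471933). The values are tags from transcript 3′ ends, which count a transcript once whatever its length, and are given as CPM, counts scaled to library size. The 10 macrophage markers summed to 4349 to 6923 CPM in KO libraries and 5098 to 8431 CPM in WT libraries. The 10 markers of dendritic cells, another lineage in which Irf8 is expressed, summed to 1.45 to 11.5 CPM in KO libraries and 1.64 to 11.0 CPM in WT libraries. The 8 B cell and plasma cell markers summed to 0.764 to 3.16 CPM in KO libraries and 0.223 to 2.78 CPM in WT libraries, with Vpreb3 at 0 in all 40. In all libraries of KO 3 and WT 4 the counts of 4 Y-linked genes summed above those of the X-linked gene Xist. In the other 6 animals they did not. Otulin tags were counted in both genotypes, at 31.1 to 48.5 CPM in the KO groups and 32.2 to 43.1 CPM in the WT groups. Since the deleted exons are not stated, a tag from the 3′ end does not check the genotype labels. In bulk RNA, fewer cells of a type and less RNA per cell cannot be told apart. In GENCODE vM21 the gene Rnf31 (7.84 to 90.6 CPM) overlaps Irf9 on the same strand, but not near the 3′ end of Irf9. Gm20388 overlaps Irf8 on the same strand, but it was not found in the count table. On the opposite strand Tnpo3 (110 to 194 CPM) overlaps Irf5 and Phrf1 (42.2 to 70.5 CPM) overlaps Irf7, each at or near the 3′ end. Bcl2l12 (0 to 3.61 CPM) overlaps Irf3 on the opposite strand, and Scaf1 (1.19 to 5.12 CPM) lies near the 3′ end of Irf3. Genes overlapping Irf1 and Irf2 did not pass 0.267 CPM. The handling of strand is not given in the sources used here, so tags at overlaps with genes of the count table may be shared.

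LPS changed the make-up of the IRF transcripts in both KO and WT cells. Irf8 was the most abundant member before LPS, with 38.1% of all IRF tags in KO and 38.1% in WT. At 3 h Irf1 made up 50.5% of IRF tags in KO and 49.7% in WT. By 24 h Irf7, which held 0.69% in KO and 0.90% in WT at 0 h, had become the most abundant member at 38.5% in KO and 35.8% in WT. The summed level of the 8 members was 398 CPM in KO cells and 401 CPM in WT cells at 0 h. It was 2323 CPM in KO cells and 2369.8 CPM in WT cells at 3 h, and 2640 CPM in KO cells and 2307 CPM in WT cells at 6 h. At 24 h it stood at 1815 CPM in KO cells and 1872 CPM in WT cells, so the family held more tags after a day of LPS than before it.

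**Figure D1:**
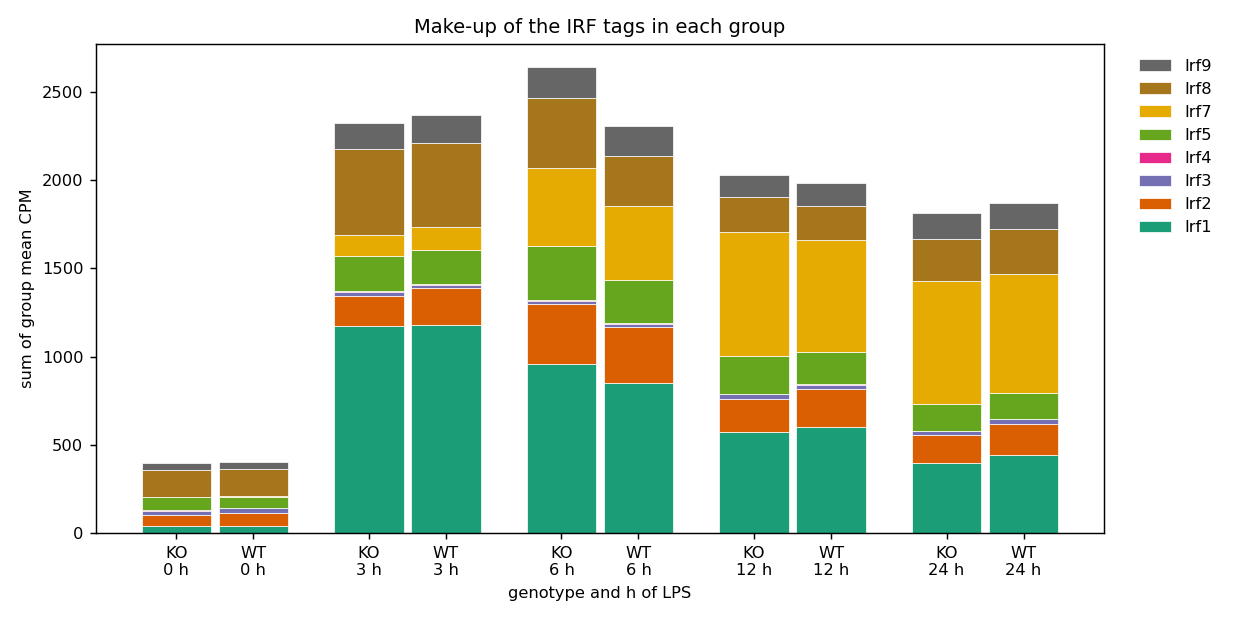
Summed group mean CPM of the 8 IRF genes (y axis, CPM, linear from 0) by hours of LPS (x axis), KO bars left of WT bars, each gene 1 colour. Irf1 is the largest segment at 3 and 6 h and Irf7 the largest at 12 and 24 h, in both genotypes.

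At 3 h 7 members were higher and 1 was lower than at 0 h in KO, and the same counts held in WT. Over all genes tested, 22.9% were higher and 25.7% lower at 3 h in KO, and 26.6% and 28% in WT (edgeR, adjusted p under 0.05). At 6 h the counts were again 7 higher and 1 lower in both genotypes, beside 28.7% and 36% of all genes in KO and 31% and 37.1% in WT. At 12 h 6 members were higher and 0 lower in both, beside 30.7% and 34% of all genes in KO and 32.3% and 35.9% in WT. At 24 h 6 were higher and 1 lower in KO (all genes 32.8% and 33%), and 6 were higher and 0 lower in WT (all genes 34.5% and 35.4%). The 6 members above their 0 h level at every later time in both genotypes were Irf1, Irf2, Irf5, Irf7, Irf8 and Irf9.

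**Figure D2:**
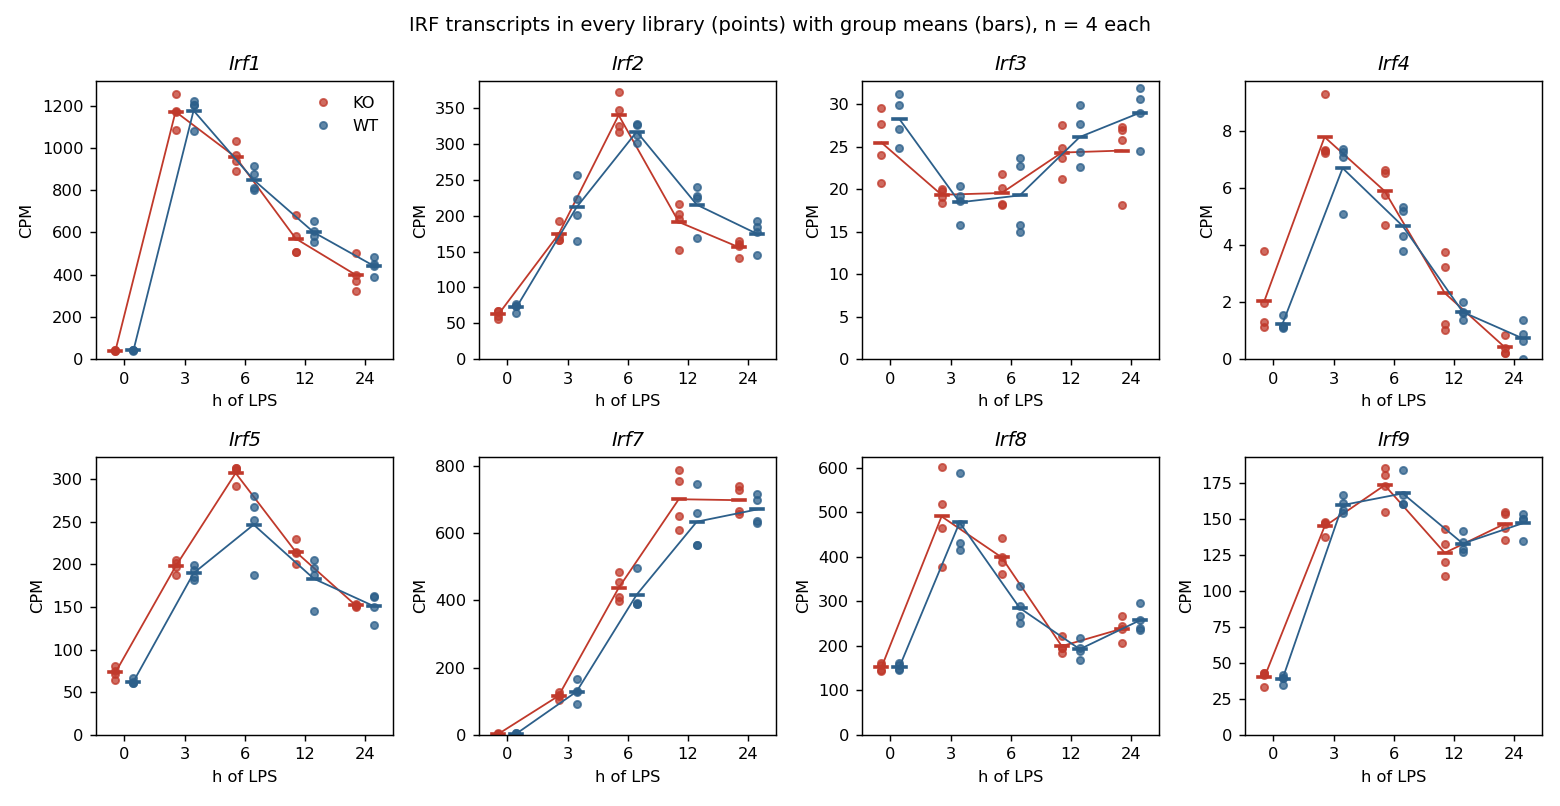
Level of each IRF gene (y axis, CPM, 1 panel per gene) by hours of LPS (x axis), with 1 point per library and bars at the group means, KO left of WT at each time. Irf1 and Irf8 peak at 3 h, Irf2, Irf5 and Irf9 at 6 h, Irf7 stays high at 12 and 24 h, and Irf3 keeps within 14.9 to 31.9 CPM.

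**Figure D3:**
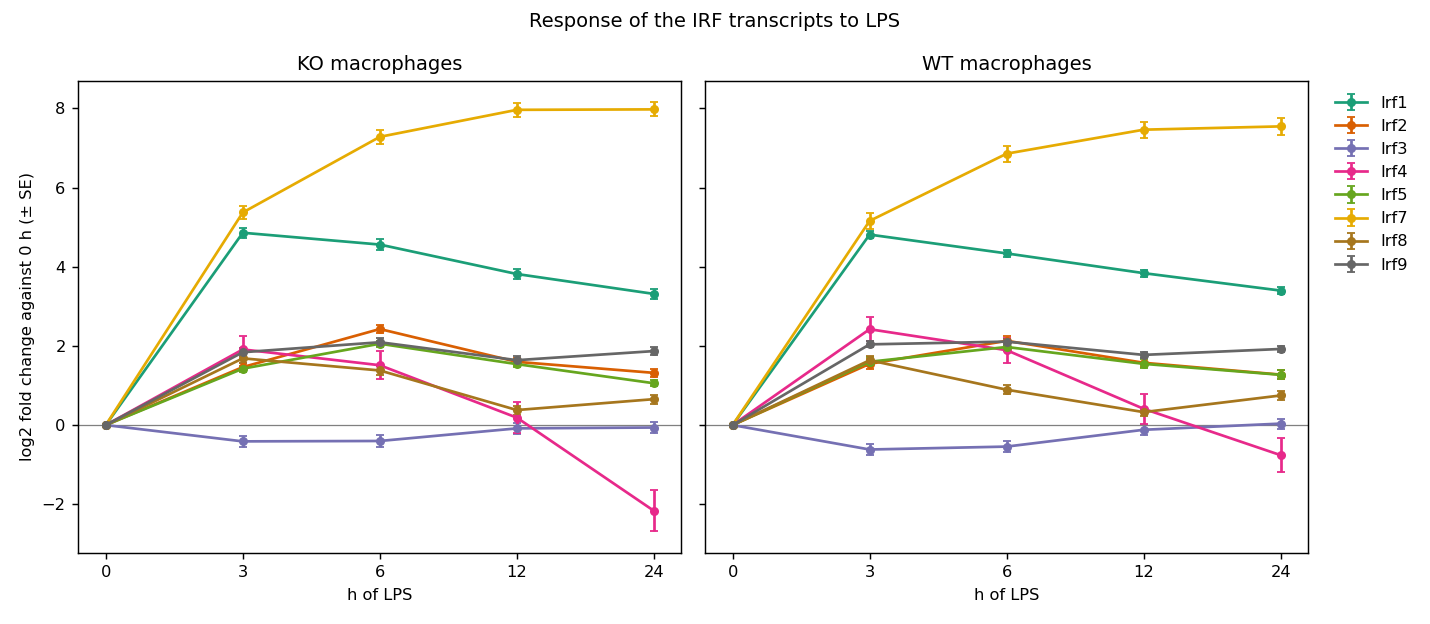
Log2 fold change of each IRF gene against 0 h (y axis) by hours of LPS (x axis), KO panel left and WT panel right, with bars for the standard error from edgeR over 4 libraries per time. Irf7 climbs to 7.98 in KO and 7.55 in WT at 24 h, while Irf1 is highest at 3 h with 4.86 in KO and 4.81 in WT.

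Irf3, Irf5 and Irf7, the members that kinases activate, followed 3 different courses. Irf3 (chromosome 7), present before any stimulus, was the only member lower at 3 and 6 h. At 3 h it measured 19.1, 19.8, 20.1 and 18.4 CPM in KO libraries 1 to 4, against 20.7, 29.5, 24.0 and 27.6 CPM at 0 h. In WT libraries 1 to 4 it measured 15.7, 19.2, 18.6 and 20.3 CPM at 3 h, against 29.9, 31.2, 27.0 and 24.8 CPM at 0 h. The 3 h and 0 h values did not overlap in either genotype. The log2 change was −0.41 ± 0.14 in KO (SE; edgeR adjusted p = 0.0149) and −0.62 ± 0.13 in WT (adjusted p = 0.000341), beside an all-gene median of −0.04 in KO and −0.05 in WT. At 6 h it was −0.40 ± 0.14 in KO (adjusted p = 0.0151) and −0.54 ± 0.14 in WT (adjusted p = 0.000976). The KO calls rest in part on KO 2. Without the libraries of that replicate at all times the adjusted p was 0.117 at 3 h and 0.25 at 6 h, and DESeq2 gave 0.0865 at 6 h. At 12 and 24 h Irf3 was not called against 0 h in either genotype, with changes of −0.08 and −0.06 in KO and −0.12 and 0.04 in WT. From 6 to 12 h it rose in WT by 0.42 ± 0.14 (adjusted p = 0.0163), a call lost without WT 2 (0.143) or WT 3 (0.102), and the KO step of 0.32 ± 0.14 was not called (adjusted p = 0.0774). From lowest to highest the times stood 3, 6, 12, 24 and 0 h in KO and 3, 6, 12, 0 and 24 h in WT, with the ranges of every 2 neighbours overlapping. The whole course spanned 1.57-fold between the lowest and highest group means.

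Irf5 (chromosome 6), which acts downstream of MyD88 in the induction of inflammatory cytokines, rose and then declined without returning to its starting level. It averaged 73.1 ± 6.88, 198 ± 7.87, 307 ± 10.2, 215 ± 12.2 and 152 ± 1.21 CPM in KO cells at 0, 3, 6, 12 and 24 h (SD, n = 4). In WT it averaged 62.5 ± 2.83, 189.6 ± 7.81, 247 ± 41.1, 183 ± 26.4 and 151 ± 15.9 CPM. The peak at 6 h was 2.06 ± 0.08 log2 above 0 h in KO (SE; adjusted p = 1.2e-17) and 1.97 ± 0.11 in WT (adjusted p = 2.98e-14). From 3 to 6 h it rose by 0.63 ± 0.07 in KO (adjusted p = 1.42e-07) and by 0.37 ± 0.10 in WT (adjusted p = 0.00538). The WT step was lost without WT 2 (adjusted p = 0.0627) or WT 3 (0.0937), and in WT the 3 h and 6 h ranges overlapped. The order of levels was 0, 24, 3, 12 and 6 h in KO, where the 3 h and 12 h ranges overlapped. In WT it was 0, 24, 12, 3 and 6 h, and 0 h alone stood clear of its neighbour.

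Irf7 (chromosome 7), the interferon-inducible member that amplifies type 1 interferon, had the largest change of the 8. At 0 h it measured 1.63, 2.85, 1.86 and 4.70 CPM in KO libraries 1 to 4, 69 counts in all, and 2.05, 4.12, 3.74 and 4.53 CPM in WT libraries 1 to 4, 92 counts in all. At 24 h it measured 656, 730.03, 666 and 741 CPM in KO libraries and 631, 699, 636 and 716 CPM in WT libraries. Every library at 24 h was far above every library at 0 h, and the genotypes overlapped at both times. Against 0 h Irf7 rose by 5.37 ± 0.17 log2 in KO at 3 h (SE; adjusted p = 1.3e-18) and by 5.16 ± 0.21 in WT (adjusted p = 4.27e-15). By 24 h the change was 7.98 ± 0.17 in KO (adjusted p = 5.31e-22) and 7.55 ± 0.21 in WT (adjusted p = 4.76e-18). It was still climbing after Irf1 had turned down. From 6 to 12 h it rose by 0.68 ± 0.11 in KO (adjusted p = 2.85e-05) and by 0.61 ± 0.13 in WT (adjusted p = 0.000902). From 12 to 24 h the change was 0.01 ± 0.11 in KO and 0.08 ± 0.13 in WT, neither of them called (adjusted p = 0.953 and 0.661), and the 12 h and 24 h ranges overlapped in both genotypes. The order was 0, 3, 6, 24 and 12 h in KO and 0, 3, 6, 12 and 24 h in WT.

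Irf1 and Irf2, the activator and its antagonist, peaked one after the other. Irf1 (chromosome 11) at 3 h measured 1177, 1256, 1084 and 1170.4 CPM in KO libraries 1 to 4 and 1205, 1082, 1221 and 1202 CPM in WT libraries 1 to 4. At 0 h it ran from 36.9 to 44.5 CPM in KO libraries and from 37.7 to 44.5 CPM in WT libraries, so the groups at 0 and 3 h lay far apart. The rise at 3 h was 4.86 ± 0.13 log2 in KO (SE; adjusted p = 6.12e-20) and 4.81 ± 0.09 in WT (adjusted p = 1.81e-23). Irf1 then fell at each step. Its level was 957.01 ± 59.1, 571 ± 83.6 and 399 ± 76.5 CPM in KO at 6, 12 and 24 h (SD, n = 4), and 849 ± 54.0, 601 ± 42.0 and 441 ± 37.98 CPM in WT. At 24 h it kept 34.0% of its peak in KO and 37.5% in WT. From 3 to 6 h it fell by 0.30 ± 0.11 log2 in KO (adjusted p = 0.0331) and by 0.47 ± 0.07 in WT (adjusted p = 8.44e-06). The KO step was lost without KO 1 (adjusted p = 0.267) or KO 2 (0.271), with RLE size factors (0.0697) and with DESeq2 (0.0766). The order of levels was 0, 24, 12, 6 and 3 h in both genotypes, with no 2 neighbours overlapping.

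Irf2 (chromosome 8) was slower and smaller in its change. It averaged 62.5 ± 5.80, 174 ± 12.8, 340.4 ± 24.9, 191 ± 27.9 and 156 ± 10.5 CPM in KO cells at 0, 3, 6, 12 and 24 h (SD, n = 4). In WT it averaged 72.3 ± 5.41, 212 ± 38.8, 317 ± 12.4, 215 ± 31.6 and 175 ± 20.6 CPM. At 6 h it was 2.43 ± 0.11 log2 above 0 h in KO (SE; adjusted p = 3.37e-16) and 2.13 ± 0.12 in WT (adjusted p = 9.51e-14). The step from 3 to 6 h was a rise in both, of 0.96 ± 0.10 in KO (adjusted p = 2.74e-08) and 0.58 ± 0.11 in WT (adjusted p = 0.000189), the interval in which Irf1 went down. From 6 to 12 h Irf2 fell by 0.83 ± 0.10 in KO (adjusted p = 3.9e-07) and by 0.55 ± 0.11 in WT (adjusted p = 0.000311). The further fall to 24 h, of 0.28 ± 0.10 in KO (adjusted p = 0.0322) and 0.30 ± 0.11 in WT (adjusted p = 0.0407), was less firm. It was lost without KO 1 (adjusted p = 0.0764), KO 2 (0.118) or KO 3 (0.169) in KO, and with no filter on low counts (0.0582). In WT it was lost without WT 2 (0.197), WT 3 (0.202) or WT 4 (0.0523). The order was 0, 24, 3, 12 and 6 h in both genotypes. The 3 h and 12 h ranges overlapped in both, and those of 24 h and 3 h in WT as well.

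Irf2bp2, which encodes a corepressor that binds IRF2, moved the other way. It lay at 159, 21.5, 11.7, 107 and 194 CPM in KO cells at 0, 3, 6, 12 and 24 h (means of 4), and at 151, 17.5, 12.8, 97.9 and 174 CPM in WT. At 6 h, where Irf2 was highest, Irf2bp2 changed by −3.76 ± 0.14 log2 against 0 h in KO (SE; adjusted p = 6.97e-18) and by −3.58 ± 0.15 in WT (adjusted p = 3.42e-16). It then recovered by 3.18 ± 0.14 between 6 and 12 h in KO (adjusted p = 3.08e-14) and by 2.95 ± 0.16 in WT (adjusted p = 1.17e-12).

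Irf9 (chromosome 14), the DNA-binding subunit of ISGF3, rose within 3 h and then stayed high. It averaged 40.1 ± 4.81, 145 ± 4.94, 173 ± 13.5, 126 ± 14.2 and 147 ± 9.23 CPM in KO cells at 0, 3, 6, 12 and 24 h (SD, n = 4). In WT it averaged 38.8 ± 3.01, 159.6 ± 5.58, 168 ± 11.2, 133 ± 6.50 and 147 ± 8.23 CPM. The rise at 3 h was 1.84 ± 0.10 log2 in KO (SE; adjusted p = 3.99e-14) and 2.04 ± 0.07 in WT (adjusted p = 1.96e-18). Between 3 and 6 h it rose further in KO, by 0.25 ± 0.09 (adjusted p = 0.0328), a call lost without KO 2 (0.141), without KO 3 (0.105) and with no filter on low counts (0.151). The WT step of 0.07 ± 0.07 was not called (adjusted p = 0.452). Both genotypes then fell from 6 to 12 h, by 0.45 ± 0.09 in KO (adjusted p = 0.000363) and by 0.33 ± 0.07 in WT (adjusted p = 0.000284). At 24 h Irf9 was 1.87 ± 0.10 above 0 h in KO (adjusted p = 2.41e-14) and 1.92 ± 0.07 in WT (adjusted p = 6.86e-18). The order of levels was 0, 12, 3, 24 and 6 h in KO and 0, 12, 24, 3 and 6 h in WT. The 3 h range overlapped those of 12 and 24 h in KO. In WT the ranges of 12 and 24 h, and of 3 and 6 h, overlapped.

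Irf8 (chromosome 8), the myeloid lineage factor, was expressed before LPS and rose early. At 0 h it measured 156, 146, 162 and 143 CPM in KO libraries 1 to 4 and 162, 145, 148 and 157 CPM in WT libraries 1 to 4. At 3 h it measured 602, 378, 518 and 465 CPM in KO libraries and 415, 432, 474 and 589 CPM in WT libraries. Every library at 3 h was above every library at 0 h, and at both times the genotypes overlapped. The rise at 3 h was 1.69 ± 0.11 log2 in KO (SE; adjusted p = 4.14e-12) and 1.64 ± 0.11 in WT (adjusted p = 1.34e-12). At 12 h Irf8 averaged 199 ± 16.3 CPM in KO cells and 192 ± 20.9 CPM in WT cells (SD, n = 4), 0.38 ± 0.11 and 0.33 ± 0.11 log2 above 0 h (adjusted p = 0.00518 and 0.00917). The WT call at 12 h was lost without WT 3 (adjusted p = 0.0539). Between 12 and 24 h it rose in WT by 0.42 ± 0.11 (adjusted p = 0.00283), while the KO step of 0.28 ± 0.11 was not called (adjusted p = 0.0583), though it was with the replicate block (0.026) and without the filter on low counts (0.0371). The order of levels was 0, 12, 24, 6 and 3 h in both genotypes. The ranges of 12 and 24 h and of 6 and 3 h overlapped in KO, and those of 24 and 6 h in WT.

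Irf4 (chromosome 13), the member linked to alternative activation, was the scarcest. At 3 h it measured 7.32, 7.34, 7.22 and 9.29 CPM in KO libraries 1 to 4, 157 counts in all, and 7.07, 7.27, 7.38 and 5.08 CPM in WT libraries 1 to 4, 123 counts in all. At 0 h the 4 libraries held 51 counts in KO (2.05 ± 1.22 CPM, SD) and 32 counts in WT (1.24 ± 0.22 CPM). The low counts make these the least precise values of the family. Irf4 rose at 3 h by 1.91 ± 0.34 log2 in KO (SE; adjusted p = 4.71e-05) and by 2.42 ± 0.30 in WT (adjusted p = 1.18e-07). At 24 h it fell to 0.413 ± 0.297 CPM in KO, 9 counts over 4 libraries, which was −2.17 ± 0.52 log2 against 0 h (adjusted p = 0.000793). In WT at 24 h it measured 0.723 ± 0.576 CPM, 14 counts, and the change of −0.76 ± 0.43 was not called (adjusted p = 0.119). The 24 h difference between the genotypes' responses was not tested, because Irf4 did not pass the filter on low counts there. The 9 and 14 counts leave the size of the KO fall uncertain. From 6 to 12 h it fell in both genotypes (adjusted p = 0.00535 in KO and 0.000566 in WT), a KO call lost without KO 1 (0.0558). The order of levels was 24, 0, 12, 6 and 3 h in both genotypes, with 0 and 12 h overlapping in KO, and with 24 and 0 h, 0 and 12 h, and 6 and 3 h overlapping in WT.

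Step by step, more members rose than fell up to 6 h, and more fell than rose from 6 h on. From 3 to 6 h 4 members rose and 2 fell in KO (all genes 19% and 21.6%), and 3 rose and 2 fell in WT (all genes 20.4% and 21.9%). Irf2, Irf5 and Irf7 rose and Irf1 and Irf8 fell in both genotypes, and Irf9 rose in KO. From 6 to 12 h 1 member rose and 6 fell in KO (all genes 22.7% and 22%), and 2 rose and 6 fell in WT (all genes 22.3% and 23.4%). Irf7 was the riser in both, joined by Irf3 in WT. From 12 to 24 h 0 rose and 4 fell in KO (all genes 18.1% and 18.8%), and 1 rose and 4 fell in WT (all genes 19.1% and 20.5%). The 4 that fell were Irf1, Irf2, Irf4 and Irf5 in both. Of the WT falls, Irf4 was lost without WT 1 (adjusted p = 0.157), WT 2 (0.0766) or WT 3 (0.175). It was also lost with no filter on low counts (0.0752), with DESeq2 (0.0553) and with 1 fit of all 40 libraries (0.0527). Irf5 was lost without WT 1 (0.145), WT 2 (0.139) or WT 3 (0.172). With the losses of Irf2 given above, the members called numbered 3 without WT 1, 2 without WT 2 or WT 3, and 4 without WT 4, in place of 5.

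Between the genotypes 1 of the 8 members passed the test, and at 1 time. Irf8 at 6 h was higher in KO. It measured 401, 363, 443 and 389 CPM in KO libraries 1 to 4, against 334, 251, 267 and 289 CPM in WT libraries 1 to 4. All 4 KO libraries were above all 4 WT libraries. The means were 399 ± 33.7 CPM in KO cells and 285 ± 36.3 CPM in WT cells (SD, n = 4), a difference of 0.47 ± 0.09 log2 (SE; 95% interval 0.29 to 0.64; 1.38-fold; edgeR adjusted p = 0.0177). At 6 h 1.01% of the 10518 genes tested were called between the genotypes, and 0.837% were higher in KO. The call was lost without KO 1 (adjusted p = 0.0747), KO 3 (0.0729), WT 2 (0.0937) or WT 3 (0.063). It was also lost without both KO 3 and WT 4, the animals with Y-linked counts above Xist (0.0536). The difference stayed between 0.41 and 0.55 log2 in these and the other alternatives. In the same libraries the 9 neutrophil markers summed to 30.4 to 56.9 CPM in KO cells and 59.7 to 79.8 CPM in WT cells, without overlap. Of these, S100a8 and S100a9 reached 43.0 and 28.9 CPM in the series, and no other neutrophil marker passed 4.34 CPM. The 10 macrophage markers summed to 6052 to 6515 CPM in KO cells and 6673 to 7001 CPM in WT cells, also without overlap. Among them is Lyz2, the locus that drives the Cre, with 2319.6 ± 208 CPM in KO cells and 3112 ± 205 CPM in WT cells (SD; adjusted p = 0.00752). The lower macrophage sum in KO includes this Lyz2 difference. A sum without Lyz2 was not taken, so the other macrophage markers are not shown to be lower in KO. The 10 dendritic cell markers, all of them detected somewhere in the series, summed to 6.37 to 10.05 CPM in KO cells and 5.49 to 6.62 CPM in WT cells, and the 8 B cell and plasma cell markers to 0.861 to 2.68 CPM in KO cells and 0.305 to 1.78 CPM in WT cells. The 7 monocyte markers summed to 483 to 540 CPM in KO cells and 444 to 607 CPM in WT cells, with overlap. The 8 T and NK cell markers summed to 0.861 to 1.80 CPM in KO cells and 0.610 to 3.56 CPM in WT cells. Such marker differences were not limited to 6 h. Neutrophil sums were also apart at 3 h (30.5 to 43.5 CPM in KO cells, 57.0 to 71.7 CPM in WT cells). They were apart at 24 h too (18.8 to 27.3 CPM in KO cells, 32.9 to 45.1 CPM in WT cells). Macrophage sums were apart at 24 h as well (6231 to 6528 CPM in KO cells, 6558 to 8283 CPM in WT cells). Mean Lyz2 was lower in KO cells than in WT cells at every time. The part of any of these markers in the Irf8 result was not tested.

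**Figure D4:**
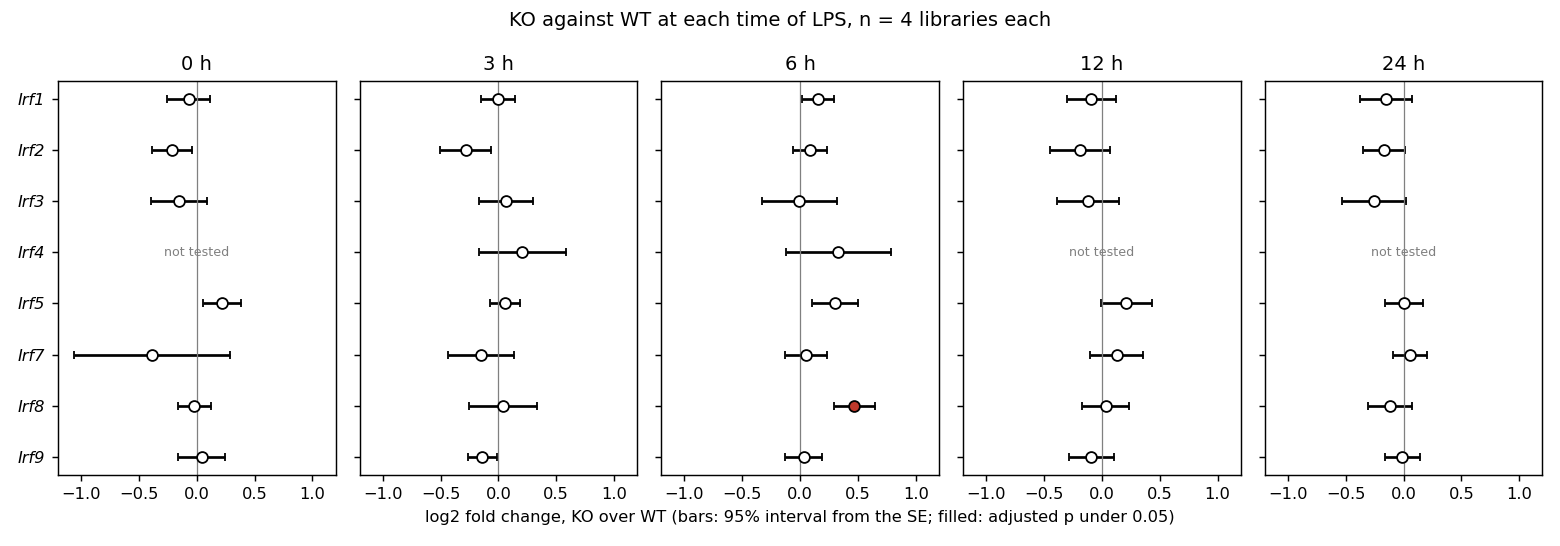
Log2 fold change of KO over WT for each IRF gene (x axis) in 1 panel per time of LPS, with 95% intervals from edgeR over 4 KO and 4 WT libraries, filled where the adjusted p was under 0.05. Irf8 at 6 h, at 0.47, is the 1 filled point, and Irf4 was not tested at 0, 12 and 24 h.

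At the other times Irf8 did not pass the test between genotypes. The Irf8 difference, KO minus WT, was −0.02 ± 0.07, 0.04 ± 0.15, 0.03 ± 0.10 and −0.12 ± 0.10 log2 at 0, 3, 12 and 24 h (SE; adjusted p = 0.942, 0.95, 0.969 and 0.831). Irf8 came down from its 3 h peak in both genotypes. From 3 to 6 h it fell by 0.31 ± 0.11 in KO (adjusted p = 0.0299) and by 0.74 ± 0.10 in WT (adjusted p = 2.49e-06). The KO step was lost without KO 1 (adjusted p = 0.407) or KO 3 (0.0586), with RLE size factors (0.0549) and with DESeq2 (0.056). The difference between these steps, chosen for testing after the data were seen, was 0.44 ± 0.19 and was not called (adjusted p = 1). Counted from 0 h, the LPS response at 6 h in KO minus that in WT was 0.49 ± 0.12 log2, which did not pass edgeR's test (adjusted p = 0.5), whereas DESeq2 gave 0.51 (adjusted p = 0.0249). From 6 to 12 h Irf8 fell by 1.00 ± 0.11 in KO (adjusted p = 1.44e-07) and by 0.57 ± 0.11 in WT (adjusted p = 0.000116), and the 12 h ranges overlapped.

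Irf5 at 6 h was the second of the 3 sets of genotype groups without overlap. It measured 310.3, 313, 292 and 314 CPM in KO libraries 1 to 4, against 252, 268, 279.6 and 187 CPM in WT libraries 1 to 4. The groups did not overlap, WT 4 lay well under the other 3 WT libraries, and 7.82% of all genes tested at 6 h separated the genotypes this way in either direction. The difference was 0.30 ± 0.10 log2 (SE) and was not called (edgeR adjusted p = 0.215), though it was without the filter on low counts (adjusted p = 0.0222). The Irf5 estimate was above 0 at 0, 3, 6 and 12 h, at 0.22 ± 0.08, 0.06 ± 0.07, 0.30 ± 0.10 and 0.21 ± 0.11. At 24 h it was 0.00 ± 0.08 and ran from −0.07 to 0.04 over the alternatives. None of these estimates was called (edgeR adjusted p from 0.215 to 0.998).

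Irf9 at 3 h was the third set of groups without overlap, with KO below. It measured 147, 138, 147 and 148 CPM in KO libraries 1 to 4, against 161, 157, 154 and 167 CPM in WT libraries 1 to 4. The difference of −0.14 ± 0.06 log2 was not called (adjusted p = 0.406), and 6.23% of all genes tested at 3 h separated the genotypes in either direction. The KO minus WT difference of Irf2 was −0.21 ± 0.09 at 0 h and −0.28 ± 0.11 at 3 h (adjusted p = 0.582 and 0.352), called only at 3 h and only without the filter on low counts (0.0284). Irf7, for all its response to LPS, differed between the genotypes by −0.38 ± 0.34 at 0 h and by −0.15 to 0.13 at later times, with adjusted p from 0.768 to 0.916.

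Counted over the family, 0 of 7 members tested were called between KO and WT at 0 h, 0 of 8 at 3 h, 1 of 8 at 6 h, 0 of 7 at 12 h and 0 of 7 at 24 h. Over all genes the shares called were 0%, 0.689%, 1.01%, 0.0464% and 0.0809%. Unadjusted p-values under 0.05 were found for 2, 2, 3, 0 and 0 members, and calls by DESeq2 for 0, 0, 1, 0 and 0. Over all genes, 900 of 11734, 1292 of 11035, 1265 of 10518, 832 of 10783 and 830 of 11122 had an unadjusted p under 0.05. DESeq2 called 27, 140, 206, 64 and 56 of all genes. In the test of the LPS response in KO minus that in WT, edgeR called 0 members at 3, 6, 12 and 24 h, where 0%, 0%, 0% and 0.00818% of all genes were called. At these times 0, 2, 0 and 0 members reached an unadjusted p under 0.05, and calls by DESeq2 numbered 0, 1, 0 and 0. The 2 members at 6 h were Irf8 and Irf2, and the Irf2 difference was 0.31 ± 0.12 log2 (SE; adjusted p = 0.99). These counts do not show that the other members were equal in KO and WT.

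Upstream of the IRFs, LPS changed the receptor and the kinases in the same direction in both genotypes. Tlr4, the receptor, fell to 31.2 CPM at 3 h in KO and 32.7 CPM in WT, changes of −1.24 ± 0.12 and −1.08 ± 0.09 log2 against 0 h (SE, n = 4; adjusted p = 1.98e-09 and 2.13e-10). Ikbke, which encodes the inducible kinase IKKε, rose by 2.47 ± 0.13 in KO (adjusted p = 1.41e-14) and 2.52 ± 0.09 in WT at 3 h (adjusted p = 7.02e-19). Tbk1, its constitutive relative, rose less, by 0.58 ± 0.08 in KO (adjusted p = 3.02e-06) and 0.68 ± 0.09 in WT (adjusted p = 3.64e-07). Of the 17 genes from TLR4 to these kinases, 11 rose and 3 fell at 3 h in KO (all genes 22.9% and 25.7%). In WT 12 of them rose and 3 fell (all genes 26.6% and 28%). Their median change was 0.68 log2 in KO and 0.68 in WT, beside −0.04 and −0.05 over all genes. Between the genotypes 1 of the 17 was called at 6 h, beside 1.01% of all genes. Tank, a scaffold that binds TBK1 and IKKε, averaged 210.1 ± 16.1 CPM in KO cells and 141 ± 11.8 CPM in WT cells at 6 h (SD), a difference of 0.56 ± 0.08 log2 (SE; adjusted p = 0.003).

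Ifnb1, the interferon beta gene and the classical target of IRF3, had 0 counts at 0 h in both genotypes. At 3 h it averaged 9.51 ± 1.06 CPM in KO cells and 4.98 ± 2.16 CPM in WT cells (SD, n = 4). That was at least 62.0-fold higher than 0 h in KO and at least 35.5-fold higher in WT, against a floor of 3 counts over the 0 h group. The KO libraries ran from 8.80 to 11.1 CPM and the WT libraries from 2.14 to 7.10 CPM, without overlap. Of all genes tested at 3 h, 6.23% separated the genotypes in either direction. The Ifnb1 difference of 0.87 ± 0.25 log2 (SE) was not called (adjusted p = 0.129). Stat2, which encodes a partner of IRF9 in ISGF3, lay at 191 CPM at 3 h and 403 CPM at 6 h in KO, and at 204 CPM and 388 CPM in WT. It was not called between the genotypes at 3 or 6 h (adjusted p = 0.67 and 0.916). Of the 10 genes for interferon beta, the interferon receptors and their signalling proteins, 10 rose at 3 h, 9 rose and 1 fell at 6 h, 9 rose at 12 h and 10 rose at 24 h in both genotypes, with a median of 1.13 log2 in KO and 1.24 in WT at 3 h. At these times 22.9% to 32.8% of all genes rose and 25.7% to 36% fell in KO. In WT 26.6% to 34.5% rose and 28% to 37.1% fell. Between the genotypes 1 of the 9 list genes tested at 6 h was called, beside 1.01% of all genes. That was Ifngr1, a subunit of the interferon gamma receptor, at 80.5 CPM in KO cells and 105 CPM in WT cells at 6 h (−0.39 log2, adjusted p = 0.0433).

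Downstream, all 20 type 1 interferon target genes rose at 3, 6, 12 and 24 h in both genotypes. Their median change was 5.96 log2 in KO and 5.79 in WT at 3 h, and 7.13 in KO and 6.74 in WT at 6 h. All 14 target genes of IRF1 and IRF8 rose at each time too, with medians of 6.13 in KO and 5.93 in WT at 3 h. Over all genes 22.9% to 32.8% rose at these times in KO and 26.6% to 34.5% in WT. Between the genotypes 4 of the 20 interferon targets were higher in KO at 6 h, beside 0.837% of all genes. It was the time of all the calls in the list, and the median of the list was 0.17 log2, beside −0.01 over all genes. At the other times its median, KO minus WT, was −0.30 at 0 h, where 3 of the 18 tested were above 0, −0.06 at 3 h (7 of 20), 0.05 at 12 h (14 of 20) and −0.11 at 24 h (4 of 20). The 4 were Ifit1 (4963 ± 247 CPM in KO cells and 3779 ± 485 CPM in WT cells, SD), which restrains translation of viral RNA, Oasl1, the RNA sensor Ifih1, and Cmpk2. Of the 14 targets of IRF1 and IRF8, 1 was called at 6 h, beside 1.01% of all genes. Socs1, the inhibitor of JAK signalling, averaged 334 ± 26.3 CPM in KO cells and 233 ± 27.9 CPM in WT cells (0.50 ± 0.09 log2, SE; adjusted p = 0.0115).

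Among 14 IRF partners and inhibitors, 8 rose and 3 fell at 3 h in KO (median 1.04 log2), beside 22.9% and 25.7% of all genes. In WT 9 of them rose and 3 fell (median 1.24), beside 26.6% and 28% of all genes. Between the genotypes 1 of 14 was higher in KO at 3 h (all genes 0.362%) and 2 of 13 at 6 h (all genes 0.837%). Spi1, which encodes the IRF8 and IRF4 partner PU.1, rose at 3 h by 0.68 ± 0.11 log2 in KO (SE; adjusted p = 9.82e-06) and by 0.71 ± 0.08 in WT (adjusted p = 2.09e-08). At 6 h, where Irf8 differed between the genotypes, Spi1 lay at 259 ± 30.5 CPM in KO cells and 254 ± 25.0 CPM in WT cells (SD; adjusted p = 0.975). Batf2, whose protein pairs with IRFs, averaged 216 ± 13.9 CPM in KO cells and 164 ± 10.9 CPM in WT cells at 6 h (0.38 ± 0.08 log2, SE; adjusted p = 0.0217). Atf3, a transcriptional repressor in LPS-treated macrophages, was higher in KO at 3 h, at 346.7 ± 18.5 CPM in KO cells and 257 ± 14.5 CPM in WT cells (0.43 ± 0.07; adjusted p = 0.00597), and at 6 h (0.41 ± 0.08; adjusted p = 0.0204). Of the genes of alternative activation linked to IRF4, 4 of 9 tested rose and 1 fell at 3 h in KO (all genes 22.9% and 25.7%). In WT 3 of 8 rose and 1 fell (all genes 26.6% and 28%). The medians were 0.47 log2 in KO and 0.58 in WT. At 24 h 4 of 9 rose and 4 fell in KO (all genes 32.8% and 33%), and 3 of 8 rose and 4 fell in WT (all genes 34.5% and 35.4%).

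Patterns of the members across the 10 groups were compared by the root mean square (RMS) difference of their centred log2 CPM, as a description over group means of the same 40 libraries. The most alike pair within the family was Irf2 and Irf5, at 0.20 log2, followed by Irf5 and Irf9 at 0.29 and Irf2 and Irf9 at 0.29. Over 9098 candidate genes, the gene most like Irf1 was Ifi203 (0.26), then Nfkbie (0.28) and Irgm2 (0.28). For Irf7 it was Isg20 (0.24), an interferon-inducible exonuclease gene, then Saa3 (0.28) and Fpr2 (0.31). Isg20 lay at 1.72 CPM in KO cells and 2.30 CPM in WT cells at 0 h and at 359 CPM in KO cells and 348 CPM in WT cells at 12 h, and thus shared the near absence of Irf7 before LPS. Irf8 was followed most closely by Stim2 (0.18), a calcium sensor of the endoplasmic reticulum, then Socs7 (0.21) and Kctd12 (0.22). The genes nearest Irf2 were Rap2c, Golga3 and Tifa (0.13 each), those nearest Irf5 were Ccdc86, Vcpip1 and Ppp2r5a (0.13 to 0.14), and those nearest Irf9 were Zc3hav1, Susd6 and Arid5b (0.13 to 0.15). Irf4 had Ndrg1, Spsb1 and Adgrg6 nearest, at 0.23 to 0.24. The median candidate differed from the members by 0.70 (Irf8) to 2.91 (Irf7). Irf3 spanned 0.64 log2 over the groups, under the 1 log2 required, so no likeness is given for it.

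**Figure D5:**
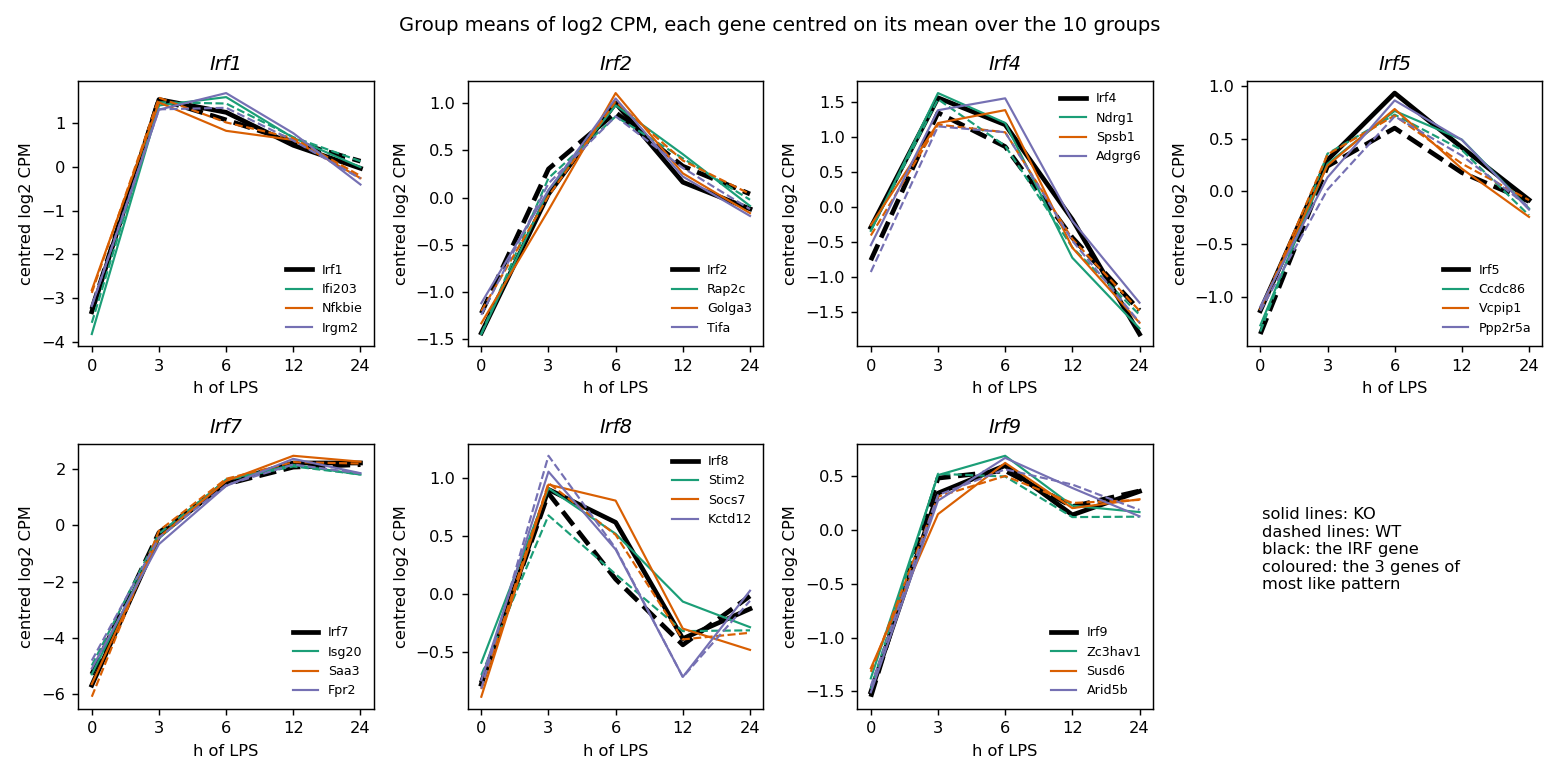
Centred group mean log2 CPM (y axis) by hours of LPS (x axis) for 7 IRF genes, each with the 3 genes of most similar pattern, solid lines for KO and dashed lines for WT. The 3 genes drawn beside Irf7 share its low 0 h level, and those beside Irf8 share its 3 h peak.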

How the data were processed

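RNA was measured by QuantSeq 3′ tag sequencing in 40 libraries, 4 biological replicates per genotype and time per the labels. The deposited values are unnormalized expected counts by Ensembl identifier, made by the authors. The submitters' processing notes name STAR 2.7.10a, RSEM 1.3.3, UMI-tools 1.1.2, cutadapt 3.7 and FastQC 0.11.9 and the build GRCm39. The handling of molecular identifiers and strand is not given in the sources used here. The counts were whole as deposited, so rounding changed none. No library was identical to another, and no replicate pair agreed within sampling noise. Of 57010 identifiers 52029 had a symbol in GENCODE vM21.

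Tests used edgeR 4.0.16 in R 4.3.3 (TMM, filterByExpr with minimum count 10, robust quasi-likelihood, two-sided, Benjamini-Hochberg over all genes tested, threshold 0.05). KO and WT were compared in the 8 libraries of a time, LPS times in the 20 libraries of a genotype, and responses between genotypes in 16 libraries. Log2 fold changes used a prior count of 0.125, SE is its size divided by the root of the F statistic, and 95% intervals are 1.96 SE. The tests were also run on counts simulated from the spread that edgeR fitted, for KO against WT at 6 h and 3 h against 0 h in WT. Such counts follow the model of the test, so they do not check its fit to these data. Alternatives were RLE size factors, no filter, DESeq2 1.42.0, 1 fit of all 40 libraries, a replicate block, animals with Y-linked counts not above Xist, and leaving out each replicate. Leaving out a replicate removed all its libraries from a fit, those of every time in the LPS and step tests.

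All 8 members are named, the likest 3 genes each (mean of at least 5 CPM), and listed genes by role or call. Members and lists were chosen with earlier results of these data known. Genes outside the members named for a call or smallest p were chosen after their values were seen. Promoters came from RefSeq (GRCm38.p6), not the build of the table. Their sequences before the start site are printed, and coordinates refer to GRCm38.p6 alone.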

Additional observations from a re-analysis of the deposited data

Results flagged for a closer look

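In 10 of the 80 groups of 4 libraries, 1 per gene, genotype and time, a library stood apart from the other 3 by Dixon's criterion at 95%, where chance alone gives about 1 in 20. In KO, 4 libraries lay low in this way. Irf3 in KO 4 at 24 h measured 18.2 CPM (others 25.7 to 27.3), Irf9 in KO 1 at 0 h measured 33.0 CPM (others 41.7 to 43.0), and Irf9 in KO 2 at 3 h measured 138 CPM (others 147 to 148). Irf5 in KO 3 at 6 h measured 292 CPM (others 310.3 to 314), which still lay above every WT library of that time. Irf4 in KO 4 at 3 h was high at 9.29 CPM (others 7.22 to 7.34).

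Among WT libraries, WT 4 stood apart in 4 groups. Irf4 there measured 1.56 CPM at 0 h (others 1.09 to 1.15) and 5.08 CPM at 3 h (others 7.07 to 7.38), Irf5 measured 66.7 CPM at 0 h (others 60.7 to 61.4), and Irf7 measured 497 CPM at 6 h (others 388 to 393). Irf1 in WT 2 at 3 h measured 1082 CPM, against 1202 to 1221 CPM in the other 3. No library of Irf8 was apart in this way.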

How the results depend on the processing

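No IRF value that passed the test changed direction under any alternative run. The number of members called between KO and WT at 3 h was 1 with no filter on low counts (0 as reported). At 6 h it was 2 with no filter, 0 without the animals with Y-linked counts above Xist (KO 3 and WT 4) and 0 to 1 when 1 library was left out (1 as reported). From 12 to 24 h in WT it was 2 to 4 with 1 replicate left out at all times (5 as reported). For the difference in response at 6 h DESeq2 called 1 (0 as reported). The causes were not tested. Over all genes, edgeR called 0, 76, 106, 5 and 9 between KO and WT at 0, 3, 6, 12 and 24 h, DESeq2 called 27, 140, 206, 64 and 56, and edgeR without the filter called 177, 359, 344, 158 and 163. With the replicate block the members called between KO and WT numbered 0, 0, 1, 0 and 0 at these times. From 12 to 24 h in KO the block gave 6 in place of 4, adding Irf8 (adjusted p = 0.026) and Irf9 (0.0381). The numbers were not taken as pairs, since deviations of same-numbered KO and WT libraries correlated at under 0.1 in 19 of 20 cases, with a lowest value of −0.233. Across times within a genotype 33 of 80 such correlations were under 0.1, although 36 of 40 libraries correlated best with their own number. Y-linked counts also stood above Xist in the same numbers, KO 3 and WT 4, at every time. The numbers may thus mark animals followed over time, a pairing that the main LPS tests leave out and the block uses. With the block all 57 calls against 0 h and all 35 step calls stood. The lowest counts, those of Irf4 at 0, 12 and 24 h, limit its values most.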
